A study of Mus musculus with 12 samples.

Results

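The neutrophil-attracting CXC chemokines *Cxcl1*, *Cxcl2*, *Cxcl3*, *Cxcl5* and *Ppbp* and the receptors *Cxcr1* and *Cxcr2* were followed in RNA-seq libraries of mouse scars. They were taken from the count files by their gene symbols, and all 7 were found among the 35976 genes listed and among the 18853 genes with enough counts to be tested. The scars came from male mice of 8 to 12 weeks on a C57BL/6J background, with 3 mice in each of 4 groups. Every mouse had a split wound on the back and carried a plastic device on it from day 6, so the sham mice also had a wound and a device. In the traction groups the device was stretched by 1 mm each day until 8 mm was reached, and in the sham groups it was left as placed. *Tem1WT/WT* mice carry the normal gene. *Tem1lacZ/lacZ* mice are null for *Tem1* throughout the body, with a *lacZ* reporter at the locus. RNA was taken from a part of each whole scar, which holds many cell types, so fewer cells of a type and less RNA per cell cannot be told apart.

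These chemokines are small secreted proteins that bind glycosaminoglycans in tissue and on vessel walls. They act mainly through *Cxcr2*, a receptor coupled to G proteins on neutrophils, and lead these cells out of the blood into injured skin. Interleukin-1, tumour necrosis factor and interleukin-17 induce the ligand genes, largely through NF-κB. *Cxcl1*, *Cxcl2* and *Cxcl3* are close relatives, *Cxcl5* is known as a product of epithelial and stromal cells, and *Ppbp* is the precursor of a neutrophil-activating peptide that platelets store.

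Libraries held 41536788 to 64644293 counts on genes. Levels are given as CPM, counts per 1000000 of the library after scaling by edgeR's TMM method. A gene was called changed where the Benjamini-Hochberg adjusted p over all genes tested was under 0.05 in edgeR's two-sided quasi-likelihood test, with all 12 libraries in a single model. *Cd248*, the symbol of *Tem1* in the files, was at 92.4 to 337 CPM in the 6 libraries of *Tem1WT/WT* mice and at 0 to 13 counts in the 6 of *Tem1lacZ/lacZ* mice, so each library carried the genotype of its label. Fibroblast markers (10 genes, 24086 to 124437 CPM when summed) and keratinocyte markers (11 genes, 14701 to 68787 CPM) were high in all libraries of these scars. Skeletal muscle markers (6 genes) summed to 729 to 8708 CPM in the *Tem1WT/WT* sham group and to 203 to 1306 CPM in the *Tem1WT/WT* traction group, and 6 adipocyte markers to 1536 to 2696 and 172 to 1168 CPM. Replicate 1 of the *Tem1WT/WT* traction group stood apart from the other libraries in neutrophil markers and in most of the genes described here, and values without it are given beside the comparisons that use it.

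The 5 ligand genes lie together on chromosome 5 of GRCm38, all on the plus strand, in a row of 7 CXC genes that spans 147 kb. In the GENCODE vM21 annotation the order is *Cxcl5* (chr5:90759360-90761624), *Ppbp* (chr5:90768518-90770063), *Pf4* (chr5:90772435-90773383), *Cxcl3* (chr5:90786103-90789600), *Cxcl15* (chr5:90794534-90803067), *Cxcl1* (chr5:90891241-90893115) and *Cxcl2* (chr5:90903871-90905938). *Pf4* encodes platelet factor 4, a chemokine of platelets and macrophages that is not a ligand of *Cxcr2*. The receptors lie within 40.6 kb of each other on chromosome 1, *Cxcr2* on the plus strand (chr1:74153989-74161246) and *Cxcr1* on the minus strand (chr1:74191785-74194631).

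Promoter windows from 250 bases before to 50 bases after the start of transcription were read for 6 of the 7 genes from RefSeq (GRCm38.p6). No window of *Cxcl5* was held in the table used. The stretches from 150 to 31 bases before the start of 4 ligand genes are shown, since *Cxcl1*, *Cxcl2* and *Cxcl3* share a run of letters there that *Ppbp* lacks. Capitals mark this run, GGGAATTTCCC, the longest that the 3 stretches have in common. It has the form of an NF-κB site, and all 4 stretches are on the plus strand.
*Cxcl1*, chr5:90891095-90891214: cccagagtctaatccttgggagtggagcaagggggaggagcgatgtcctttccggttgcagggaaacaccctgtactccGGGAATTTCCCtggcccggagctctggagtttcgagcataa
*Cxcl2*, chr5:90903749-90903868: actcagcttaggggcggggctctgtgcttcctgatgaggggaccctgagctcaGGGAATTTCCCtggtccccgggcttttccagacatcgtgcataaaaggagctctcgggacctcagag
*Cxcl3*, chr5:90785951-90786070: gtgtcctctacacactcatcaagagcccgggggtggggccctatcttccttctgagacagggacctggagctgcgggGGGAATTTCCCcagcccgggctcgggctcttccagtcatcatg
*Ppbp*, chr5:90768368-90768487: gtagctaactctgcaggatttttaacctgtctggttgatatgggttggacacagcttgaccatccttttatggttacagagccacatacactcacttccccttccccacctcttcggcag
The run starts at −71 in *Cxcl1*, −97 in *Cxcl2* and −73 in *Cxcl3*, counted from the start of transcription. It was found on either strand in 14 of 32851 windows of the same length (0.0426%), and with at most 1 other letter in 0.591%. The run was chosen from these sequences. The other windows with the run belong to 11 other genes, of which 7 were tested, and 0 of these 7 were called in either direction with traction in *Tem1WT/WT* mice. The nearest match differed in 5 letters in the window of *Ppbp*, in 4 in that of *Cxcr1* and in 3 in that of *Cxcr2*. TATAAA on the coding strand, found in 8.32% of all windows, started at −30 in *Cxcl3* and in *Ppbp*. TGANTCA, the form of an AP-1 site, was found on either strand in 7.81% of all windows, and GAGGAA, the form of a PU.1 site, in 28.3%. Of the 6 windows read, the first was in that of *Ppbp* and the second in those of *Cxcl2* and *Cxcr2*. The presence of these letters is a description of the sequence, and binding was not measured.

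In *Tem1WT/WT* mice, scars under traction held more RNA of 4 of the 5 ligands and of both receptors than sham scars. *Cxcl1*, *Cxcl3*, *Cxcl5*, *Ppbp*, *Cxcr1* and *Cxcr2* were called higher, 6 of the 7 genes, where 5.61% of all genes tested were called higher. *Cxcl2* was higher in the mean but overlapped between the groups and was not called. The median log2 fold change of the 7 genes was 5.34, against −0.01 over all genes tested.

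*Cxcl1*, a main neutrophil attractant of injured tissue, was at 1.19, 1.09 and 3.82 CPM in replicates 1 to 3 of the *Tem1WT/WT* sham group and at 66.4, 37.6 and 15.8 CPM in the traction group. Every library under traction lay above every sham library. The log2 fold change was 4.29 (standard error 0.62, adjusted p = 0.0193 in edgeR), a 19.6-fold difference of the fitted levels.

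*Cxcl2*, an attractant made by activated macrophages and neutrophils, was at 1.76, 0.856 and 11.2 CPM in the sham group and at 1807, 8.77 and 87.3 CPM in the traction group. Replicate 1 under traction was 206 times as high as replicate 2, and replicate 2 lay below the highest sham library. With this spread the log2 fold change of 7.10 had a standard error of 2.21 (adjusted p = 0.0637 in edgeR).

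*Cxcl3*, the closest relative of *Cxcl2* in the row, followed the same order of libraries, with 0.912, 0.290 and 1.46 CPM in the sham group and 582, 2.38 and 21.3 CPM in the traction group. The groups did not overlap, although replicate 2 under traction was within 1 CPM of the highest sham library. The log2 fold change was 7.84 (standard error 2.15, adjusted p = 0.0475 in edgeR), and this call was near the threshold.

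*Cxcl5* was at 0.478, 1.23 and 1.93 CPM in the sham group and at 352, 114 and 55.9 CPM in the traction group. All 3 libraries under traction were far above the sham range, replicate 2 included. The log2 fold change was 7.15 (standard error 1.07, adjusted p = 0.0217 in edgeR).

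*Ppbp* had the lowest group mean of the ligands under traction, with 3.19, 6.34 and 3.39 CPM against 0.260, 0.479 and 1.08 CPM in the sham group. It was highest in replicate 2 and not in replicate 1, unlike the other 6 genes. The log2 fold change was 2.81 (standard error 0.71, adjusted p = 0.0396 in edgeR). Of 10 platelet and megakaryocyte markers, 8 were tested, and 7 of these had a positive log2 fold change (median of the 8, 0.77). The 4 with an unadjusted p under 0.05 in edgeR were *Treml1*, *Itgb3* and *Pf4*, which were higher, and *Gp5*, which was lower. The sum of all 10, *Pf4* included, was 64.7 to 107 CPM in the sham group and 134 to 188 CPM under traction. *Itga2b*, *Gp1ba*, *Gp1bb* and *Clec1b* overlapped between the groups. *Pf4* alone was at 25.0 to 35.2 CPM in the sham group and at 35.2 to 90.6 CPM under traction. *Treml1*, a receptor of platelet granules, had the highest log2 fold change (3.04, adjusted p = 0.0666 in edgeR). It had only 0, 4 and 0 counts in the sham group and 4, 15 and 8 counts under traction. None of the 8 was called higher, and *Gp5*, a platelet surface glycoprotein, was called lower, where 3.54% of all genes were called lower. *Gp5* had 38, 42 and 29 counts in the sham group and 7, 2 and 7 counts under traction. The part of platelets in the level of *Ppbp* was not tested.

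*Cxcr2*, the receptor shared by these ligands, was at 2.50, 5.38 and 13.0 CPM in the sham group and at 481, 106 and 20.9 CPM in the traction group. The groups did not overlap, but replicate 3 under traction was close to the highest sham library. The log2 fold change was 4.86 (standard error 1.00, adjusted p = 0.0305 in edgeR).

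*Cxcr1*, the other receptor of this group, was rare, with 6, 2 and 8 counts in the sham libraries (0.0290 to 0.131 CPM) and 388, 92 and 24 counts under traction (9.23, 2.03 and 0.493 CPM). The order of the libraries under traction was that of *Cxcr2*. The log2 fold change was 5.34 (standard error 1.02, adjusted p = 0.0278 in edgeR). The libraries of the groups thus did not overlap for 6 of the 7 genes, as for 17.7% of all genes tested in this direction.

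**Figure D1:**
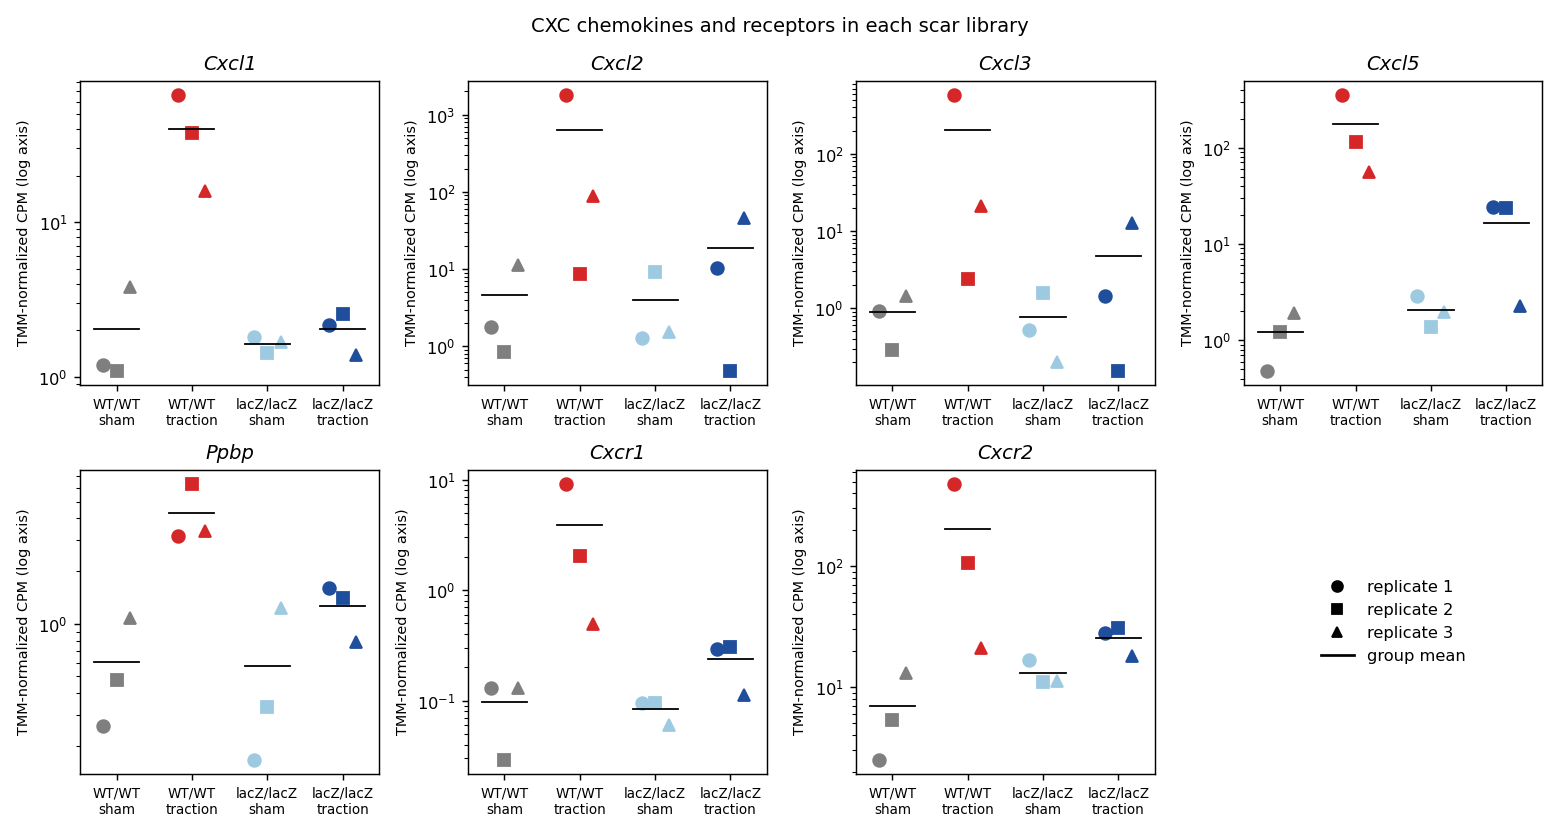
Levels of the 7 genes in CPM on a log axis, 1 panel per gene, with 1 point per library, the replicate number as its shape and the group mean as a line. Tem1WT/WT libraries under traction (red) lie above both sham groups for every gene but Cxcl2, and Tem1lacZ/lacZ libraries under traction (dark blue) lie below them for Cxcl1, Cxcl5, Ppbp and Cxcr1.

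Without replicate 1 of the *Tem1WT/WT* traction group, 3 of the 7 genes were called, where 1.44% of all genes were called higher. *Cxcl1* then had a log2 fold change of 3.70 (adjusted p = 0.0344 in edgeR), *Cxcl5* of 6.10 (adjusted p = 0.0344) and *Cxcr1* of 3.70 (adjusted p = 0.0448). Those of *Cxcl2* and *Cxcl3* fell to 3.35 (adjusted p = 0.203) and 3.71 (adjusted p = 0.140) and that of *Cxcr2* to 3.18 (adjusted p = 0.0502). *Ppbp* kept a log2 fold change of 2.97 (adjusted p = 0.0557). Leaving out replicate 1 or replicate 2 of the *Tem1WT/WT* sham group left 0 called genes among the 7 and among all genes tested. Leaving out replicate 3 of the *Tem1lacZ/lacZ* sham group left 2 of the 7 and 0.635% of all genes called higher, while the other 8 choices left 4 to 6. All 7 genes had a positive log2 fold change in each of the 21 alternatives in which they were tested. The call held in 18 of 21 alternatives for *Cxcl1* and *Cxcl5*, in 16 of 21 for *Cxcr2*, in 16 of 20 for *Cxcr1*, in 10 of 20 for *Ppbp* and in 5 of 20 for *Cxcl3*, and *Cxcl2* was called in 2 of 21.

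**Figure D2:**
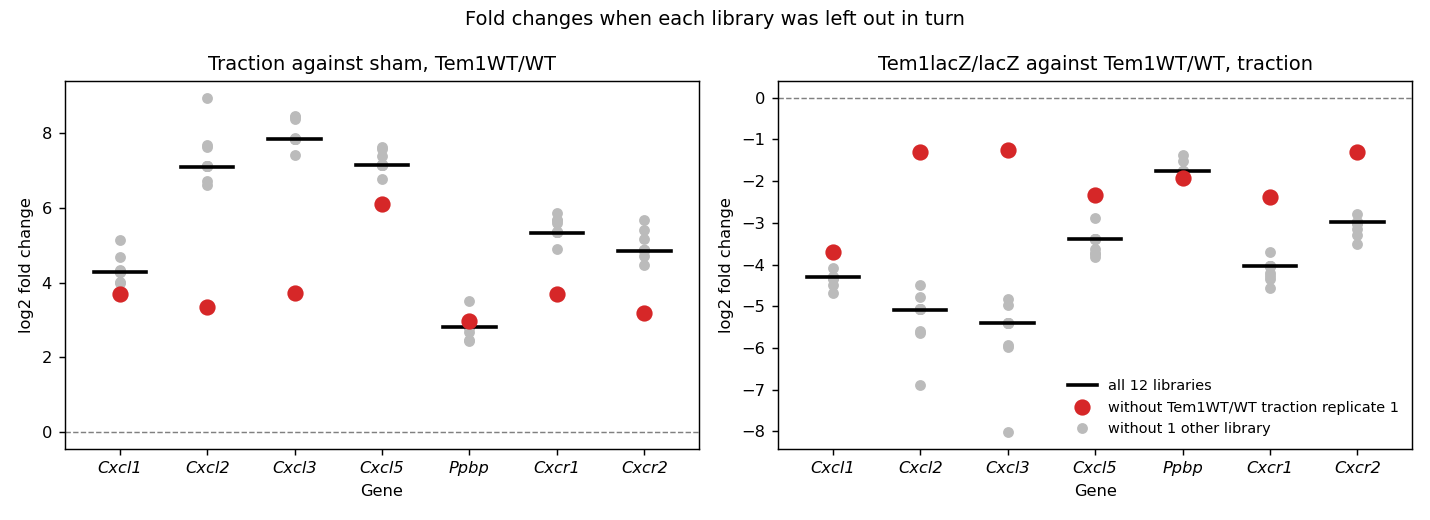
Log2 fold changes of the 7 genes with all 12 libraries (black lines) and with 1 library left out at a time (points), for traction against sham in Tem1WT/WT mice at the left and for Tem1lacZ/lacZ against Tem1WT/WT mice under traction at the right. Leaving out replicate 1 of the Tem1WT/WT traction group (red) moved Cxcl2 from 7.10 to 3.35 and Cxcl3 from 7.84 to 3.71 at the left, and moved Ppbp little.

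In *Tem1lacZ/lacZ* mice, none of the 7 genes was called between traction and sham, where 0 of all genes tested were called by edgeR. All 7 estimates were positive, with a median log2 fold change of 1.48 against −0.01 over all genes. *Cxcl5* had the largest, 2.99 (standard error 0.90, unadjusted p = 0.00670, adjusted p = 0.598 in edgeR's quasi-likelihood test), and was the only 1 of the 7 with an unadjusted p under 0.05, as were 5.66% of all genes in this direction. DESeq2 and limma-voom also called 0 of the 7. The 95% intervals of the log2 fold change ran from −0.93 to 1.55 for *Cxcl1* and from −1.73 to 6.18 for *Cxcl2*, so a large difference in *Cxcl2* could not be told from the spread between mice.

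*Cxcl1* was at 1.81, 1.42 and 1.68 CPM in the *Tem1lacZ/lacZ* sham group and at 2.17, 2.54 and 1.38 CPM under traction. The ranges overlapped and the log2 fold change was 0.31 (standard error 0.56). *Cxcl5* was at 2.90, 1.38 and 1.98 CPM in the sham group and at 23.9, 23.6 and 2.28 CPM under traction, so that replicates 1 and 2 were above all sham libraries and replicate 3 was among them. Without that replicate the log2 fold change of *Cxcl5* was 3.51 (adjusted p = 0.991 in edgeR).

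*Cxcl2* and *Cxcl3* were instead highest in replicate 3. *Cxcl2* was at 1.29, 9.23 and 1.55 CPM in the sham group and at 10.3, 0.477 and 45.5 CPM under traction (log2 fold change 2.22, standard error 1.79). *Cxcl3* was at 0.524, 1.57 and 0.202 CPM in the sham group and at 1.45, 0.153 and 12.6 CPM under traction (log2 fold change 2.65, standard error 1.81). Without replicate 3 under traction these estimates fell to 0.40 and 0.03.

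*Ppbp* was at 0.167, 0.332 and 1.23 CPM in the *Tem1lacZ/lacZ* sham group and at 1.60, 1.41 and 0.792 CPM under traction, with overlap (log2 fold change 1.12, standard error 0.70). *Cxcr2* was at 16.8, 10.9 and 11.3 CPM in the sham group and at 27.8, 30.8 and 18.2 CPM under traction (log2 fold change 0.98, standard error 0.87). *Cxcr1* had 4, 4 and 3 counts in the sham group and 12, 16 and 6 counts under traction (log2 fold change 1.48, standard error 1.04). For both receptors every library under traction was above every sham library, as for 6.77% of all genes in this direction, and neither difference was called.

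Under traction, the fitted levels of all 7 RNAs were lower in *Tem1lacZ/lacZ* than in *Tem1WT/WT* scars, with log2 fold changes between −5.41 and −1.76 (median −4.03, against 0.01 over all genes tested). Only *Cxcl1* was called lower, 1 of the 7 genes, where 0.0955% of all genes tested were called lower. Its log2 fold change was −4.30 (standard error 0.62, adjusted p = 0.0335 in edgeR), a 19.7-fold lower fitted level, and the lowest *Tem1WT/WT* library (15.8 CPM) was above the highest *Tem1lacZ/lacZ* library (2.54 CPM). All 7 had an unadjusted p under 0.05, as had 15.1% of all genes in this direction. This comparison uses the same 3 *Tem1WT/WT* traction libraries as the comparison with sham, so opposite directions in the 2 are not independent.

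Among the other ligands, the log2 fold change was −5.08 for *Cxcl2* (standard error 2.01, adjusted p = 0.149 in edgeR), −5.41 for *Cxcl3* (standard error 1.91, adjusted p = 0.125), −3.39 for *Cxcl5* (standard error 0.89, adjusted p = 0.0951) and −1.76 for *Ppbp* (standard error 0.68, adjusted p = 0.144). For the receptors it was −4.03 for *Cxcr1* (standard error 0.94, adjusted p = 0.0891) and −2.99 for *Cxcr2* (standard error 0.92, adjusted p = 0.102). The libraries of the genotypes did not overlap for *Cxcl1*, *Cxcl5*, *Ppbp* and *Cxcr1*, 4 of the 7 genes, as for 13.7% of all genes in this direction. They overlapped for *Cxcl2*, *Cxcl3* and *Cxcr2*, where the lowest *Tem1WT/WT* library under traction lay inside the *Tem1lacZ/lacZ* range.

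*Cxcl1* was also lower in each of the 21 alternatives, by log2 fold changes from −4.67 to −3.70, and was called in 10 of them. With a block for the replicate number it was not called, and 0.0637% of all genes were called lower. Without replicate 1 of the *Tem1WT/WT* traction group it was −3.70 (adjusted p = 0.0510 in edgeR), and 0 of the 7 genes were called. *Cxcl2*, *Cxcl3* and *Cxcr2* then differed between the genotypes by −1.30, −1.26 and −1.30, and *Cxcl5*, *Cxcr1* and *Ppbp* by −2.34, −2.38 and −1.92. No member was called without replicate 2 of the *Tem1WT/WT* sham group or without any single *Tem1lacZ/lacZ* library, and 3 were called without replicate 2 of the *Tem1WT/WT* traction group (*Cxcl1*, *Cxcl5* and *Cxcr1*), where 3.80% of all genes were called lower. DESeq2 called 6, all but *Ppbp*, and called 7.77% of all genes lower.

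In the sham groups the genotypes did not differ by a call in any of the 7 genes, where 0.0106% of all genes tested were called. The log2 fold changes of *Tem1lacZ/lacZ* against *Tem1WT/WT* mice ran from −0.32 for *Cxcl1* to 0.89 for *Cxcr2*, with 5 negative and 2 positive, and 0 had an unadjusted p under 0.05 in edgeR, where 11.7% of all genes had. DESeq2 and limma-voom called 0 as well. The 95% intervals were −1.55 to 0.92 for *Cxcl1*, −1.18 to 2.70 for *Cxcl5* and −1.02 to 2.81 for *Cxcr2*, and were wider for *Cxcl2* (−4.03 to 3.63) and *Cxcl3* (−4.27 to 3.82). The sign of *Cxcl1*, *Cxcl2*, *Cxcl3*, *Ppbp* and *Cxcr1* turned to positive without replicate 3 of the *Tem1WT/WT* sham group. It also turned without replicate 1 of that group for *Cxcr1*, without replicate 1 of the *Tem1lacZ/lacZ* sham group for *Cxcl2* and *Ppbp*, without its replicate 2 for *Ppbp* and without its replicate 3 for *Cxcl2* and *Cxcl3*.

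Whether traction had a different effect in the 2 genotypes was tested as an interaction. All 7 estimates were negative, that is, the traction effect was smaller in *Tem1lacZ/lacZ* mice, from −5.19 for *Cxcl3* to −1.70 for *Ppbp* on the log2 scale. None was called, as 0 of all genes tested in edgeR, with adjusted p from 0.548 to 0.597. *Cxcl1* (−3.98, standard error 0.81, unadjusted p = 0.000454 in edgeR's quasi-likelihood test), *Cxcl5* (−4.15, standard error 1.23), *Cxcr1* (−3.86, standard error 1.46) and *Cxcr2* (−3.88, standard error 1.25) had an unadjusted p under 0.05, 4 of the 7 against 4.46% of all genes in this direction. DESeq2 called *Cxcl1* (adjusted p = 0.00148 in its Wald test) and *Cxcl5* (adjusted p = 0.0477), where it called 0.249% of all genes lower, and limma-voom called 0. Without replicate 1 of the *Tem1WT/WT* traction group the estimates were −3.36 for *Cxcl1* and −3.09 for *Cxcl5*. Those of *Cxcr1* and *Cxcr2* then moved to −2.18 and −2.17, and those of *Cxcl2* and *Cxcl3* to −1.08 and −1.03.

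**Figure D3:**
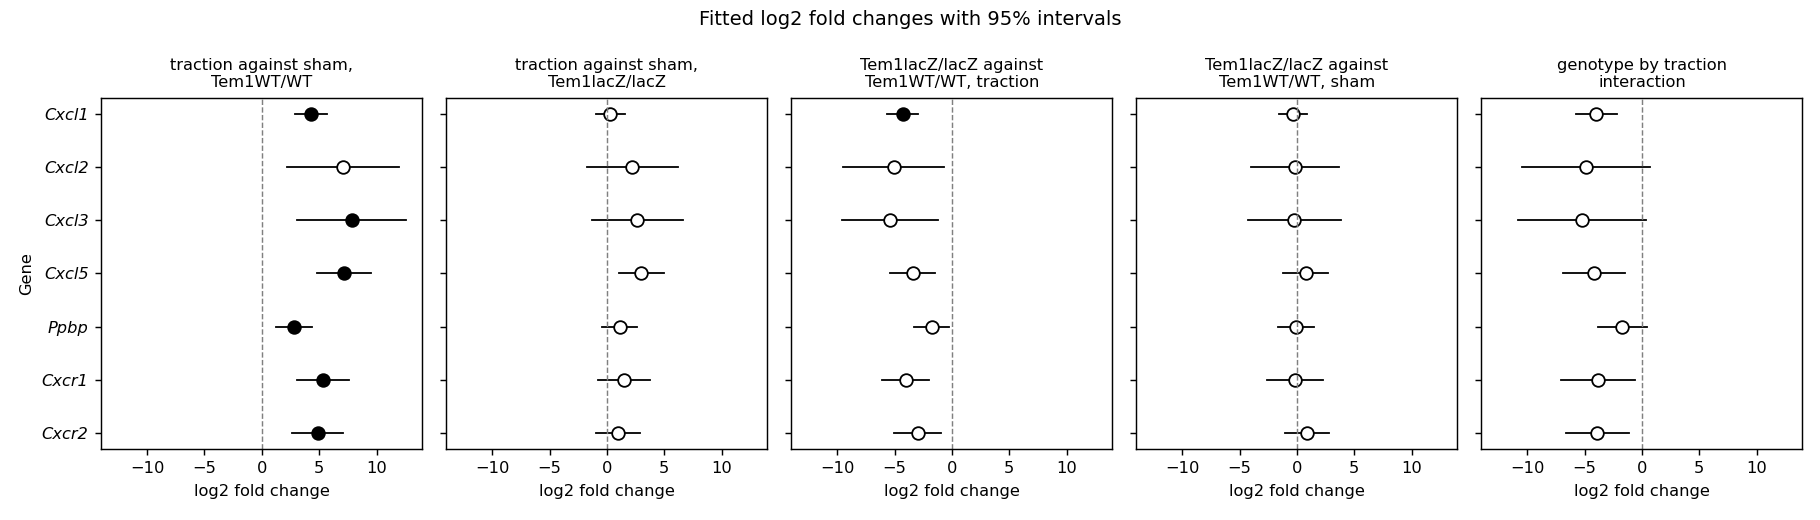
Fitted log2 fold changes of the 7 genes (points) with their 95% intervals (lines) in the 5 comparisons, filled where the gene was called in edgeR. The intervals exclude 0 for all 7 genes in Tem1WT/WT mice with traction and between the genotypes under traction, and are widest for Cxcl2 and Cxcl3.

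The group means give the order of the levels for each gene. *Cxcl1* was highest in the *Tem1WT/WT* traction group (39.9 ± 25.4 CPM, SD, n = 3), and the other 3 groups, between 1.64 ± 0.196 and 2.03 ± 1.55 CPM, overlapped each other. *Cxcl5* fell from 174 ± 157 CPM in the *Tem1WT/WT* traction group to 16.6 ± 12.4 CPM in the *Tem1lacZ/lacZ* traction group, and then to 2.09 ± 0.769 CPM in the *Tem1lacZ/lacZ* sham group and 1.21 ± 0.728 CPM in the *Tem1WT/WT* sham group, where all neighbours but the first pair overlapped. *Cxcl2* had the same first 2 groups, with 634 ± 1016 and 18.8 ± 23.7 CPM, followed by 4.60 ± 5.72 CPM in the *Tem1WT/WT* and 4.02 ± 4.51 CPM in the *Tem1lacZ/lacZ* sham group, and all neighbours overlapped. *Cxcl3* kept that order, with 202 ± 329, 4.73 ± 6.84, 0.887 ± 0.584 and 0.764 ± 0.713 CPM, again with overlap at each step. *Ppbp* was at 4.31 ± 1.76 CPM in the *Tem1WT/WT* traction group, apart from the rest, and at 1.27 ± 0.423 CPM in the *Tem1lacZ/lacZ* traction group. It was at 0.607 ± 0.425 CPM in the *Tem1WT/WT* sham group and at 0.577 ± 0.573 CPM in the *Tem1lacZ/lacZ* sham group, and both overlapped the *Tem1lacZ/lacZ* traction group. *Cxcr2* ran from 203 ± 245 to 25.6 ± 6.61, 13.0 ± 3.28 and 6.97 ± 5.44 CPM (*Tem1WT/WT* traction, *Tem1lacZ/lacZ* traction, *Tem1lacZ/lacZ* sham, *Tem1WT/WT* sham), where only the middle pair did not overlap. *Cxcr1* was at 3.92 ± 4.66 CPM in the *Tem1WT/WT* traction group, above the 0.238 ± 0.108 CPM of the *Tem1lacZ/lacZ* traction group without overlap. It was at 0.0968 ± 0.0587 CPM in the *Tem1WT/WT* and at 0.0836 ± 0.0199 CPM in the *Tem1lacZ/lacZ* sham group.

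The make-up of the ligand RNA differed between mice of the same group. Ligands were compared with each other as CPM per kb of the longest principal transcript, which sets their levels per length. The sum of the 5 ligands was 4.28, 3.42 and 17.8 CPM per kb in the *Tem1WT/WT* sham group and 2498, 128 and 155 CPM per kb in the *Tem1WT/WT* traction group. It was 5.57, 12.5 and 5.75 CPM per kb in the *Tem1lacZ/lacZ* sham group and 29.7, 19.6 and 57.0 CPM per kb in the *Tem1lacZ/lacZ* traction group. Each *Tem1WT/WT* library under traction was above each library of the other 3 groups.

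*Cxcl2* or *Cxcl5* was the leading ligand in all 6 libraries under traction. In the *Tem1WT/WT* traction group, *Cxcl2* led in replicate 1 with 65.2% of the sum and in replicate 3 with 50.8%, while in replicate 2 *Cxcl5* held 56.7% and *Cxcl2* 6.16%. In the *Tem1lacZ/lacZ* traction group, *Cxcl5* led in replicate 1 (51.1%) and in replicate 2, where it held 76.8% and *Cxcl2* 2.20%. Replicate 3 of that group had the reverse, with 71.9% *Cxcl2* and 2.54% *Cxcl5*. The level of *Cxcl2* over that of *Cxcl5*, both per kb, thus ran from 0.0286 to 28.3 within the *Tem1lacZ/lacZ* traction group alone. In the sham groups *Cxcl1* led in 3 libraries and *Cxcl2* in 3, and with the union of all coding exons as the length the leader changed in 1 of these, replicate 1 of the *Tem1WT/WT* sham group, from *Cxcl2* to *Cxcl1*. With that length the share of *Cxcl2* in replicate 1 of the *Tem1WT/WT* traction group was 52.8%.

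**Figure D4:**
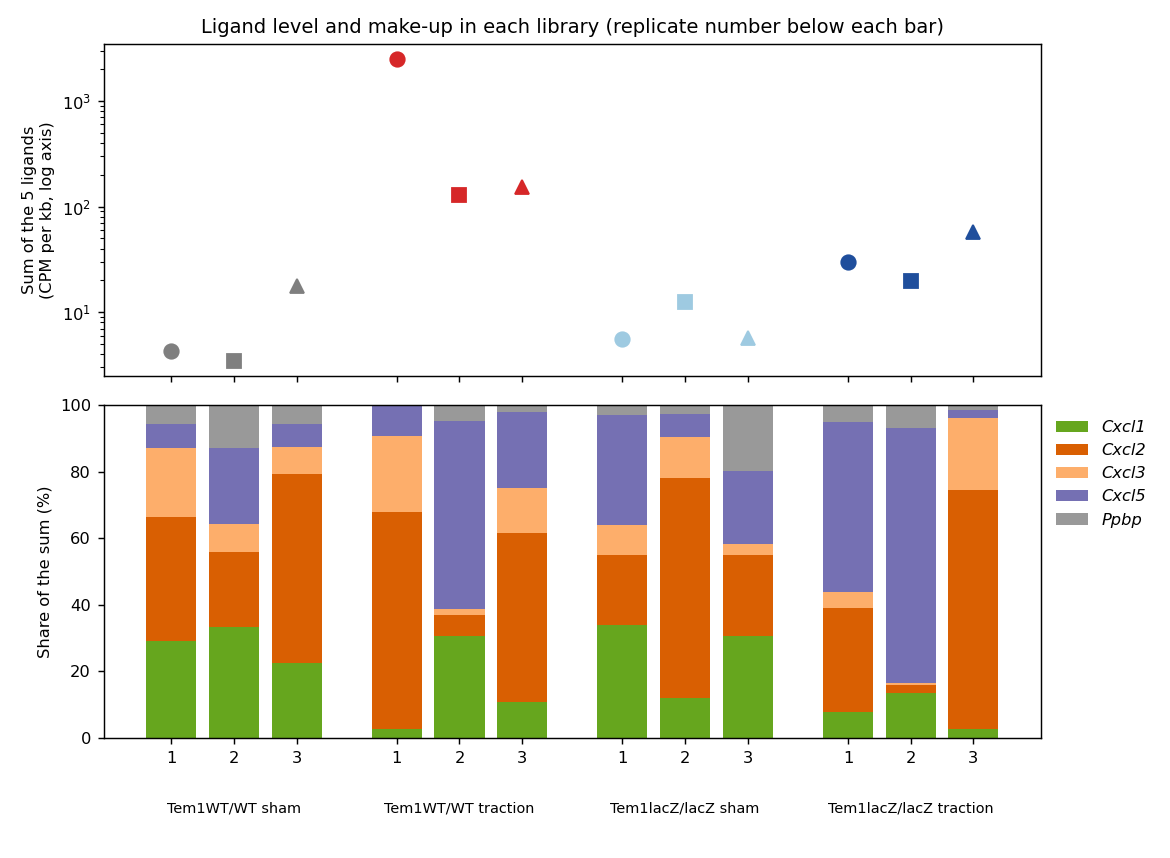
Sum of the 5 ligands in CPM per kb on a log axis (top) and the share of each ligand in that sum in percent (bottom), with 1 column per library. Cxcl2 and Cxcl3 (orange shades) or Cxcl5 (purple) make up most of the sum under traction, and which of them does so differs between mice of both genotypes.

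*Cxcl2* and *Cxcl3* moved together across the libraries. Pearson's r of their log2 CPM was 0.98 over the 12 libraries and 0.96 after each group's mean was taken out, and their ratio per kb stayed between 1.77 and 7.05 while *Cxcl2* itself ranged from 0.477 to 1807 CPM. *Cxcl2* and *Cxcl5* gave 0.60 over the 12 libraries and −0.07 within groups. *Cxcl5* was closer to *Cxcl1* (0.89, and 0.75 within groups) and to *Cxcr2* (0.91, and 0.74 within groups). *Cxcl1* and *Cxcr2* gave 0.85, and 0.90 within groups. *Cxcr1* and *Cxcr2* gave 0.91, and 0.83 within groups. These values describe 12 libraries that share the group differences given above, and no p was computed. *Cxcl1*, *Cxcl2* and *Cxcl3* are similar in sequence, and how the counting treated reads that match more than 1 of them is not given in the sources used here, so their split is uncertain.

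By the same measure, the genes most like each ligand over the 12 libraries were named. They were *Nos2* (r = 0.98), the inducible nitric oxide synthase, *Cxcr4* (0.97), the receptor of *Cxcl12*, and *Ifnar1* (0.96), a receptor of type I interferons, for *Cxcl1*. *Ccl3*, a CC chemokine of macrophages and neutrophils, and *Acod1*, the enzyme that makes itaconate in activated macrophages, were most like *Cxcl2* (0.98 and 0.97) and *Cxcl3* (0.98 and 0.98), besides each of the pair for the other. *Ccl3* had 10144, 100 and 653 counts in the *Tem1WT/WT* traction group, the same order as *Cxcl2*. For *Cxcl5* they were *Ecscr*, an endothelial surface protein, *Prokr2*, a prokineticin receptor, and *Ing1* (0.96, 0.96 and 0.95), and for *Ppbp* *Golm1*, *Uhrf2* and *Aldh1l2* (0.93, 0.91 and 0.91). *Mefv*, which encodes pyrin, *Csf3r*, the receptor of granulocyte colony-stimulating factor, and *Il17ra* (0.98, 0.97 and 0.96) were most like *Cxcr1*, and *M6pr*, *Hif1a* and *Clec4n* (0.96, 0.95 and 0.95) most like *Cxcr2*. After each group's mean was taken out, r was 0.94 to 0.98 for the genes named for *Cxcl2* and *Cxcl3*. It was then 0.86 to 0.93 for those of *Cxcr1* and 0.89 to 0.94 for those of *Cxcr2*. For *Cxcl5* it was 0.80 to 0.84, for *Cxcl1* 0.70 to 0.85 and for *Ppbp* 0.62 to 0.71. These lists also rest on 12 libraries that share group, depth and replicate 1 of the *Tem1WT/WT* traction group.

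Markers of neutrophils, cells that carry *Cxcr2*, were set beside these genes. The sum of 15 neutrophil markers was 84.2 to 122 CPM in the *Tem1WT/WT* sham group, 207 to 208 CPM in the *Tem1lacZ/lacZ* sham group, 445, 678 and 7380 CPM in the *Tem1WT/WT* traction group and 274 to 576 CPM in the *Tem1lacZ/lacZ* traction group. *S100a8* and *S100a9*, which stressed keratinocytes also make, held much of this sum. Without these 2 genes it was 41.6 to 76.4 CPM in the *Tem1WT/WT* sham group, 54.2 to 84.0 CPM in the *Tem1lacZ/lacZ* sham group, 241, 488 and 2150 CPM in the *Tem1WT/WT* traction group and 102 to 127 CPM in the *Tem1lacZ/lacZ* traction group. The sham groups then overlapped and the traction groups did not, whereas with all 15 genes the traction groups overlapped.

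Of these markers 13 were tested, and with traction in *Tem1WT/WT* mice 7 were called higher and 0 lower, where 5.61% of all genes were called higher, with a median log2 fold change of 4.67. Without replicate 1 of the *Tem1WT/WT* traction group 4 were called (median 2.20), and without replicate 1 or 2 of the *Tem1WT/WT* sham group 0, without its replicate 3, 4, and without replicate 3 of the *Tem1lacZ/lacZ* sham group 3. Under traction, 0 of the 13 were called between the genotypes in edgeR (median −2.91, 8 with an unadjusted p under 0.05, where 15.1% of all genes were lower at that p). Without replicate 1 of the *Tem1WT/WT* traction group the median was −0.23, and 3 had an unadjusted p under 0.05, while 4 and 1 were called lower without its replicates 2 and 3.

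*Ly6g*, which is nearly limited to mouse neutrophils, had 158, 8 and 2 counts in the *Tem1WT/WT* traction group, 0, 0 and 6 in the *Tem1lacZ/lacZ* traction group, and 0 in all sham libraries but 1, which had 4. *Cxcr2* had 115 to 795 counts in the same 6 sham libraries. *Csf3r*, which neutrophils share with other myeloid cells, was at 13.6 to 20.1 CPM in the *Tem1WT/WT* sham group and at 954, 285 and 51.6 CPM in the *Tem1WT/WT* traction group, the same order of replicates as *Cxcr1* and *Cxcr2*. *S100a8* was at 1296, 65.7 and 62.1 CPM in that group and at 148 CPM in replicate 1 of the *Tem1lacZ/lacZ* traction group. Macrophage and monocyte markers (12 genes), which mark other sources of *Cxcl2*, summed to 2719 to 4575 CPM in the *Tem1WT/WT* sham group and to 4305 to 5658 CPM under traction. These ranges overlapped. Of the 12 genes, only *Cd14* was called higher, where 5.61% of all genes were called higher. The part of neutrophil or macrophage number in the levels of the ligands and receptors was not tested.

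**Figure D5:**
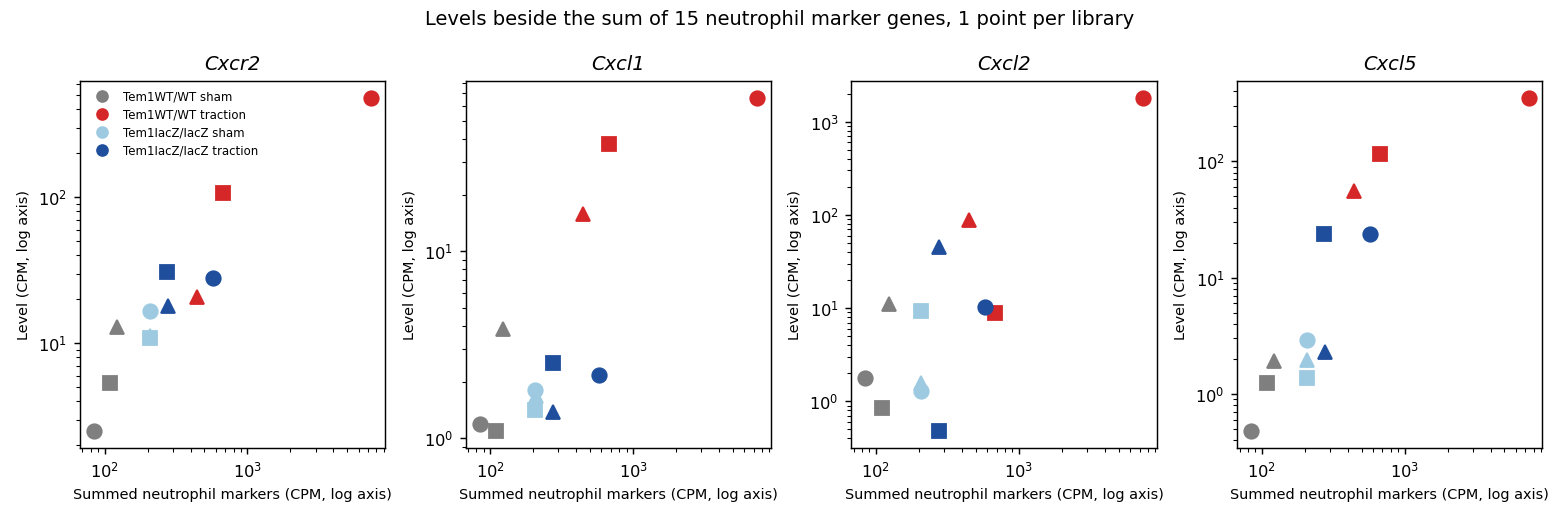
Levels of Cxcr2, Cxcl1, Cxcl2 and Cxcl5 against the sum of 15 neutrophil markers, both in CPM on log axes, with 1 point per library, colour for the group and shape for the replicate number as in the plot of levels. Replicate 1 of the Tem1WT/WT traction group lies at 7380 CPM on the horizontal axis and all other libraries at 678 CPM or below. Cxcl1 was at 15.8 and 37.6 CPM in the other Tem1WT/WT traction libraries and at 3.82 CPM or below outside this group. The marker sums of the traction groups overlap here, but without S100a8 and S100a9 they did not (241 to 2150 against 102 to 127 CPM).

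Other genes of the pathway were taken from hand-written lists of 69 genes, of which 65 were tested. With traction in *Tem1WT/WT* mice 21 of the 65 were called higher and 0 lower, where 5.61% of all genes were called higher, with a median log2 fold change of 1.39. Without replicate 1 of the *Tem1WT/WT* traction group 5 were called, without replicate 1 or replicate 2 of the *Tem1WT/WT* sham group 0, without replicate 3 of that group 7, and without replicates 1 and 3 of the *Tem1lacZ/lacZ* sham group 10 and 2. Without replicate 2 of the *Tem1WT/WT* traction group 37 were called, and the remaining choices gave 12 to 24.

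Among the 18 tested inducers of the ligands, 8 were called higher. *Il1b*, which encodes interleukin-1 beta, was at 5.90, 6.53 and 32.6 CPM in the *Tem1WT/WT* sham group and at 3698, 86.0 and 84.9 CPM under traction (log2 fold change 6.42, adjusted p = 0.0432 in edgeR). *Il6*, a cytokine often induced with these chemokines, had a log2 fold change of 3.92 (adjusted p = 0.0329), *Il17ra* of 1.71 (adjusted p = 0.0299) and the NF-κB subunit *Nfkb2* of 1.53 (adjusted p = 0.0447), and the other 4 were *Il1r1*, *Relb*, *Tnfrsf1a* and *Rela*. *Il17a* itself was too sparse to be tested, with 676, 0 and 2 counts in the *Tem1WT/WT* traction group, and is shown here after its values were seen. None of the 8 feedback inhibitors of this induction, such as *Nfkbia*, *Tnfaip3* and *Zfp36*, was called (log2 fold changes of 1.25 to 2.83, 7 with an unadjusted p under 0.05 in edgeR), and all 8 overlapped between the groups.

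Of 14 genes that signal below *Cxcr2*, 5 were called higher, among them the kinase *Fgr* (2.45), the exchange factor *Vav1* (1.60), the G protein subunit *Gnai2* (1.25) and the arrestin *Arrb2* (1.01), and the kinase *Grk2*, listed under an older symbol, at 0.71. Of 13 other neutrophil attractants and receptors 5 were called higher, among them *Csf3r* (4.70), *Fpr2* (4.20), a formyl peptide receptor, *Cxcr4* (2.35) and, at 2.01, the complement receptor *C5ar1*. *Csf3*, which encodes granulocyte colony-stimulating factor, was the fifth, with 0 counts in all 3 *Tem1WT/WT* sham libraries and 1248, 58 and 60 counts under traction. Among genes of neutrophil adhesion to vessels, *Pecam1* (1.11) and *Icam2* (0.88), which endothelial cells also express, were called higher. Of 9 endothelial markers, 6 were called higher, where 5.61% of all genes were called higher. Their sum was 370 to 540 CPM in the *Tem1WT/WT* sham group and 899 to 1080 CPM under traction. Without replicate 1 or replicate 2 of the *Tem1WT/WT* sham group, 0 of all genes tested were called in this comparison.

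Within the row on chromosome 5, *Pf4* had a log2 fold change of 1.00 with traction in *Tem1WT/WT* mice (adjusted p = 0.0671 in edgeR), and *Cxcl15* had at most 11 counts in any library and was not tested. *Mthfd2l*, *Epgn*, *Ereg* and *Areg*, the next genes beyond *Cxcl2*, had log2 fold changes of 0.14, 0.25, 0.07 and −0.37, and *Rassf6*, on the other side of the row, had −1.34 (adjusted p = 0.0640). These neighbours were chosen after their values were seen. *Ackr1*, a decoy receptor of venules that binds these chemokines, had 0.27 (adjusted p = 0.719).

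Between the genotypes under traction, 1 of the 65 pathway genes was called in edgeR. *Cxcr4*, which holds neutrophils in the bone marrow and guides other leukocytes, was at 125, 97.4 and 44.1 CPM in the *Tem1WT/WT* group and at 15.6, 15.2 and 18.4 CPM in the *Tem1lacZ/lacZ* group (log2 fold change −2.44, adjusted p = 0.0257). Without replicate 2 of the *Tem1WT/WT* sham group, or without any single *Tem1lacZ/lacZ* library, 0 were called, without replicates 2 and 3 of the *Tem1WT/WT* traction group 13 and 3, and otherwise 1. The median of the 65 genes was −1.27, with 3 positive, and 50 had an unadjusted p under 0.05 in edgeR, where 15.1% of all genes were lower at that p. *Il1b* was at 21.9, 12.1 and 133 CPM in the *Tem1lacZ/lacZ* traction group, highest in replicate 3, which was also highest in *Cxcl2* and *Cxcl3* but not in *Cxcl5*. With traction in *Tem1lacZ/lacZ* mice 0 of the 65 were called by edgeR, 0 by DESeq2, and 2 by limma-voom, which called 2.31% of all genes here. In edgeR 7 had an unadjusted p under 0.05, where 5.66% of all genes were higher at that p. The sham groups gave 0 in edgeR, DESeq2 and limma-voom, and 3 had an unadjusted p under 0.05 in edgeR, as had 11.7% of all genes. The interaction gave 0 in edgeR, 1 by DESeq2 and 0 by limma-voom. There 19 had an unadjusted p under 0.05 in edgeR, where 4.46% of all genes were lower at that p.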

How the data were processed

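RNA was extracted from a part of each scar, and stranded poly(A) libraries were sequenced in pairs. Per the submitters' processing notes, the authors used fastp 0.20.0, HISAT2 2.1.0 (GRCm38) and featureCounts 2.0.0. The deposited values are raw counts per gene, without normalization. Which annotation and strand setting were used, and how reads with several matches were treated, is not given in the sources used here.

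The tools were edgeR 4.0.16, DESeq2 1.42.0 and limma 3.58.1, run in R 4.3.3. Genes were filtered by filterByExpr (minimum count 10), normalized by TMM and fitted by robust quasi-likelihood in a model of 4 groups with 8 residual degrees of freedom. The code was first run on simulated data. These had the same spread setting for every gene and no outlying library, so they do not cover genes such as *Cxcl2* and *Cxcl3*. The tests were two-sided, and the biological coefficient of variation was 34.2%. Depth sets the precision of rare genes such as *Cxcr1*. Lengths and positions came from GENCODE vM21, and promoter windows from RefSeq, where the longest run shared by 3 ligands was searched on both strands.

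The members and lists were chosen with earlier results of these data known. The genes named were all 7 members, *Cd248*, up to 4 called genes per pathway list with the largest fold change, with the exceptions stated, and the 3 genes most correlated with each member among genes whose log2 CPM (prior count 2) averaged 1 or more. A called pathway gene is not reported here by name. P-values measure the spread between 3 mice a group. Alternatives were other filters (at least 1 count, or at least 10 in every library), size factors of DESeq2, upper quartile normalization, limma-voom (sample weights), the Wald test of DESeq2, a block for the replicate number, a fit of the compared libraries alone, a quasi-likelihood fit without robust settings, and leaving out each library. The union of exons as length, the neutrophil sum without 2 genes and its markers without single libraries were added after the data were seen.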

Additional observations from a re-analysis of the deposited data

How the results depend on the processing

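Of 710 values of single genes under 21 alternatives, 633 kept their direction and side of the threshold, 51 lost a call, 11 gained a call and 15 turned in sign, all of the last in the sham comparison of the genotypes. For traction in *Tem1WT/WT* mice, 6 called members became 3 with at least 10 counts in every library, where fewer members were tested, and 0 with only the libraries compared. The other pathway genes, 21, became 10 with at least 1 count, 42 with DESeq2, 10 with the replicate block and 0 with only the libraries compared. The share of all genes called in that comparison, 9.15%, was 10.5% with at least 10 counts in every library, 3.54% with at least 1 count, 21.5% with DESeq2, 7.78% with the replicate block and 0 with only the libraries compared. Between the genotypes under traction, 1 called member became 0 with at least 1 count, with the replicate block or with only the libraries compared, and 6 with DESeq2. The 1 pathway gene became 28 with DESeq2 and 0 with the replicate block or only the libraries compared. Of all genes 0.106% were called there, against 0.0595% with at least 1 count, 12.4% with DESeq2, 0.0796% with the replicate block and 0 with only the libraries compared. For the interaction DESeq2 called 2 members, 1 pathway gene and 0.366% of all genes, and limma-voom called 2 pathway genes and 2.31% of all genes with traction in *Tem1lacZ/lacZ* mice. The causes were not tested.

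Leaving out single libraries gave 0 to 6 members and 0 to 37 pathway genes for traction in *Tem1WT/WT* mice, 0 to 3 and 0 to 13 between the genotypes under traction, and 0 to 1 pathway genes for traction in *Tem1lacZ/lacZ* mice. In the sham groups, the signs turned for *Ppbp* (0.15) and *Cxcr1* (0.080) with limma-voom, and for *Cxcl2* (1.67) and *Cxcl3* (0.77) with the replicate block. Leaving out single libraries gave −0.60 to 0.53 for *Cxcl1*, −1.71 to 1.66 for *Cxcl2*, −1.31 to 0.40 for *Cxcl3*, −1.30 to 0.64 for *Ppbp* and −0.62 to 0.17 for *Cxcr1*.

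The numbers belong to different mice, and no label ties equal numbers to a litter, batch or day. The deviations of same-numbered libraries from their group means had correlations from −0.32 to 0.25, over 0.1 in 8 of 18 pairs against 2 of 36 pairs of different numbers. When each library's correlations with other groups were averaged by replicate number, the mean was highest for its own number in 9 of 12 libraries. Upper quartile normalization moved the median of all genes to −0.12 for traction in *Tem1WT/WT* mice and to 0.14 between the genotypes under traction, and the members kept their directions there. Rare genes such as *Cxcr1*, with 2 to 16 counts in each library outside the *Tem1WT/WT* traction group, are limited by depth. A fit of only the libraries compared was not run for the interaction, which needs all 4 groups.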
